A study of Mus musculus with 15 samples.

Results

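The 10 genes described here are receptors, ligands and targets of the Notch pathway: the receptors Notch1, Notch2 and Notch3, the ligands Jag1, Jag2, Dll1 and Dll4, and the targets Hes1, Nrarp and Hey1. The set was given by gene symbol and by role in the pathway, and it was chosen with earlier results of these data known. They are 10 of the 19938 genes with a probe set naming a single gene, and all 10 passed the filter on dim signal that left 16883 genes for testing. Where a gene had several probe sets, the brightest on average across all 15 arrays stood for it, and levels are given as log2(intensity + 16). The table's median intensity of 187.5 corresponds to 7.67 on that scale.

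The samples were GFP-sorted mouse pancreas cells in 5 groups of 3 arrays, all on a CD1 background. Sox9-GFP+ cells came from Sox9-EGFP animals at embryonic days e10.5 and e15.5 and from pups at postnatal day p23. Ngn3-GFP+ cells came from Ngn3-EGFP embryos at e15.5, and GFP- cells came from the Sox9-EGFP pups at p23. Males carrying the reporter were mated to CD1 wild-type females. Every group is named for an EGFP reporter line, and no group came from a line without one. Only cells with high GFP were kept for the positive groups, several animals were pooled before each sort, and no gate against other cell types is named. The series sets Ngn3-GFP+ cells as new endocrine progeny and GFP- cells as acinar and endocrine cells against the Sox9-GFP+ cells. Whether the 3 arrays of a group came from separate pools is not stated, so p-values measure the spread between these arrays, which may be technical.

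Notch receptors are membrane proteins that are cut after binding a Jagged or Delta ligand on a neighbouring cell. The freed intracellular part joins the DNA-binding protein RBPJ and activates genes such as Hes1, Hey1 and Nrarp. Hes1 and Hey1 encode repressors of transcription, and Nrarp encodes a feedback inhibitor that acts on the Notch nuclear complex. In the embryonic pancreas, Notch signalling is known for keeping progenitors from endocrine differentiation, in which Neurog3 (the gene behind the Ngn3 reporter) acts.

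The promoter windows are shown because the target genes, Notch1, Notch2 and Jag1 were called higher in Sox9-GFP+ cells in both comparisons of sorts. Dll1, Dll4, Jag2 and Notch3 were not. RefSeq windows of 250 bases upstream of the gene start (build GRCm38.p6) were matched for 8 of the 10 genes, all but Hes1 and Hey1. A total of 5 motifs were searched on both strands, in all 32851 windows of that length. TGGGAA, the core of the RBPJ site, was in 21.6% of all windows and in 0 of the 8, and the longer GTGGGAA, which contains it, was in 5.42% of all and 0 of the 8. CACGTG was in 6.02% of all windows and in that of Nrarp, CACGCG was in 7.62% and in those of Dll1, Dll4, Jag1 and Notch2, and CACGAG was in 5.37% and in that of Notch3. The last 3 are letters bound by Hes and Hey proteins and other helix-loop-helix factors. The windows below were picked after the matches were seen, with Hes5, another Notch target, as a window that holds GTGGGAA. A match describes the letters only. Capitals mark the motif on either strand.
Nrarp, chr2:25180508-25180757, plus strand, CACGTG: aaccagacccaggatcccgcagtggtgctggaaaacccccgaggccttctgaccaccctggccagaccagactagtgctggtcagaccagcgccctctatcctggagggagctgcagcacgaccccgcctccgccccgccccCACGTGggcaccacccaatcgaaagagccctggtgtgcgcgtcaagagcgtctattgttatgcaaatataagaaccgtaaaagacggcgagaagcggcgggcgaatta
Jag1, chr2:137116521-137116770, minus strand, CACGCG: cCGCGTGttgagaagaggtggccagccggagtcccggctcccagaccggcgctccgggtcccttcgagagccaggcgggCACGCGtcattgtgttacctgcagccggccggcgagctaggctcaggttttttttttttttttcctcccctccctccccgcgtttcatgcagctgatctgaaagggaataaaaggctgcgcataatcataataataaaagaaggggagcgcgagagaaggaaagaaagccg
Notch2, chr3:98013288-98013537, plus strand, CACGCG: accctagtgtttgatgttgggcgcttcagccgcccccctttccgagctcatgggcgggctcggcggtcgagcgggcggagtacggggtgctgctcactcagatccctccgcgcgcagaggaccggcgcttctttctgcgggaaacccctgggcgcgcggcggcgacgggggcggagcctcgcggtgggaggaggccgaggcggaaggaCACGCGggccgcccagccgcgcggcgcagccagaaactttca
Hes5, chr4:154960673-154960922, plus strand, GTGGGAA: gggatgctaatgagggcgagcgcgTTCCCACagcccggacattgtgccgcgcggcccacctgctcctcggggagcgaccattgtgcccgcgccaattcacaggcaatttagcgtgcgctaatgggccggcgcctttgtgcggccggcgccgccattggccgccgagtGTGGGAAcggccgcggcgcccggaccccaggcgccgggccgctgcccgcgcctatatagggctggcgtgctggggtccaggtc

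The sort was checked first. Sox9 lay at 11.84 to 12.12 in the Sox9-GFP+ arrays of e10.5, 12.10 to 12.14 in those of e15.5 and 11.62 to 12.10 in those of p23. It was lower in Ngn3-GFP+ cells, at 10.13 to 11.21, and in GFP- cells, at 8.68 to 10.08. Neurog3 did not separate the e15.5 sorts, at 11.66 to 12.12 in Sox9-GFP+ and 11.53 to 12.21 in Ngn3-GFP+ cells (difference −0.04, SE 0.23, limma adjusted p = 0.911). Endocrine markers were measured for 13 genes, and 7 of them were higher in Ngn3-GFP+ cells. In GFP- cells the leukocyte markers were high, with all 16 above the table median in every array and a list mean of 10.98 to 11.47 against 7.51 to 8.22 in Sox9-GFP+ cells of p23. Ptprc, the leukocyte common antigen, stood at 14.28, 14.41 and 14.64 in GFP- cells and at 8.12, 10.64 and 10.09 in Sox9-GFP+ cells of p23. The 10 acinar markers measured were also all above the median in GFP- cells, and 9 were in every Sox9-GFP+ array of p23. Their list mean was 12.31 to 12.57 in GFP- cells and 11.58 to 11.80 in Sox9-GFP+ cells of p23. The endocrine list mean was 7.72 to 8.22 in GFP- cells, 7.50 to 8.62 in Sox9-GFP+ cells of p23 and 12.32 to 12.57 in Ngn3-GFP+ cells. The embryonic globin Hbb-y was above 9 in 3 arrays, the first and second of e10.5 and the first Sox9-GFP+ array of e15.5.

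Between the sorts at e15.5, the 3 targets Nrarp, Hes1 and Hey1, the receptors Notch1 and Notch2 and the ligand Jag1 were lower in the Ngn3-GFP+ cells than in the Sox9-GFP+ cells. Of the 10 genes 6 fell, 1 rose and 3 were not called, where 18.4% of the genes tested fell, 23.3% rose and 41.7% were called in either direction. The groups did not overlap for 8 of the 10, against 56.2% of all genes. The median change of the 10 was −0.77, against 0.04 over all genes tested. Markers of other cells differed between the same sorts. Of 18 endothelial markers 10 were higher in Ngn3-GFP+ cells and none lower (list mean 7.11 to 7.23 against 6.77 to 6.85). Most were dim, with 1 to 3 above the table median per Ngn3-GFP+ array and 1 per Sox9-GFP+ array. In Ngn3-GFP+ cells 5 of 10 acinar markers (8.60 to 9.35 against 9.14 to 10.20) were lower and none higher. The same held for 3 of 10 ductal markers (8.68 to 9.72 against 9.47 to 9.97). Of 16 leukocyte markers 3 were higher and 1 lower, and of 16 mesenchymal and pericyte markers 4 were higher and 1 lower. The part of these and of the endocrine markers in the changes of the members was not tested.

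Nrarp, the feedback inhibitor, was at 10.01, 10.09 and 10.06 in Sox9-GFP+ cells of e15.5 and at 8.02, 8.33 and 8.10 in Ngn3-GFP+ cells. All 3 arrays of the second group were below all 3 of the first. Nrarp fell by 1.90 (SE 0.21), 3.73-fold on this scale, with a limma adjusted p of 9.9e-05, and ranked 74 by size among the 16883 genes. Hes1 was at 9.07, 8.97 and 8.89 in Sox9-GFP+ and at 7.66, 7.37 and 7.62 in Ngn3-GFP+ cells. Its groups did not overlap either, and it fell by 1.42 (SE 0.23, adjusted p = 0.00103). Hey1, the hairy-related repressor, was at 9.25, 8.98 and 9.05 against 7.73, 8.39 and 8.45 in Ngn3-GFP+ cells, again without overlap. It fell by 0.90 (SE 0.21, adjusted p = 0.00702). Most of the immediate early genes, which respond to cell dissociation, were also lower in Ngn3-GFP+ cells, where 9 of the 16 measured fell and 1 rose. Their mean lay at 8.65 to 9.27 against 9.65 to 10.52. Their part in the changes of the targets was not tested.

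Among the receptors, Notch2 showed the larger difference. It was at 10.08, 10.03 and 10.11 in Sox9-GFP+ cells of e15.5 and at 9.58, 8.57 and 9.16 in Ngn3-GFP+ cells. The second Ngn3-GFP+ array was the lowest of all 15, and it fell by 0.97 (SE 0.20, adjusted p = 0.00409). Notch1 was at 9.17, 9.02 and 9.003 against 8.37, 8.19 and 8.68, with no overlap, and fell by 0.65 (SE 0.13, adjusted p = 0.00332). Notch3 was at 7.81, 7.60 and 7.72 against 7.92, 7.56 and 7.91, and the groups overlapped. Its difference was 0.08, with an interval of −0.18 to 0.34.

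The ligands differed from each other. Jag1 was at 9.15, 9.01 and 9.27 in Sox9-GFP+ and at 8.14, 7.94 and 8.65 in Ngn3-GFP+ cells, and the groups did not overlap. Jag1 fell by 0.90 (SE 0.16, adjusted p = 0.00144). Jag2 was at 7.33, 7.16 and 7.43 against 7.86, 7.56 and 7.59, all 3 higher. It rose by 0.36 (SE 0.14, adjusted p = 0.0454), a call lost in 9 of 17 alternatives, over which the adjusted p ran from 0.0358 to 0.234. Dll4 was at 7.45, 7.40 and 7.23 against 7.74, 7.80 and 7.86, also all higher, but did not pass at 0.44 (SE 0.18, adjusted p = 0.0626). Dll1, a Delta ligand, was at 8.44, 7.43 and 8.05 against 7.80, 7.68 and 8.17. The 2 groups overlapped and the difference was −0.09, with an interval of −0.58 to 0.41. Jag2 and Dll4 were dim, above the table median in 2 and 3 of the 15 arrays.

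**Figure D1:**
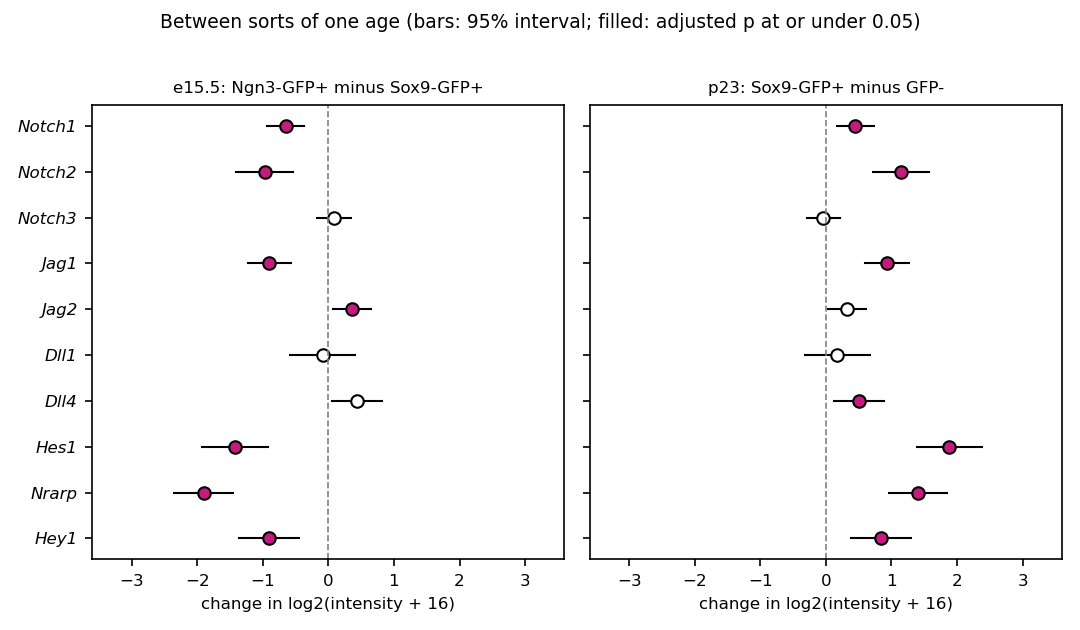
Change in log2(intensity + 16) of the 10 genes between sorts, at e15.5 (Ngn3-GFP+ minus Sox9-GFP+) and at p23 (Sox9-GFP+ minus GFP-), so opposite signs mean the same order relative to Sox9-GFP+ cells. Points are limma estimates, bars are 95% intervals and filled points have an adjusted p at or under 0.05. Nrarp (−1.90) and Hes1 (−1.42) lie farthest to the left at e15.5, and Hes1 (1.88) and Nrarp (1.40) farthest to the right at p23.

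At p23, 7 of the 10 genes were higher in Sox9-GFP+ cells than in GFP- cells and none was lower, with 3 not called. Of all genes tested, 21.5% were higher and 36% called in either direction. The groups did not overlap for 7 of the 10, against 47.3% of all genes. Their median difference was 0.67 against 0.07 over all genes. Centring each array on its median changed the share of called genes that were higher from 59.6% to 44.6%, and Dll4 and Notch1 lost their calls, while the other 5 kept theirs. The 3 targets, Notch2, Notch1, Jag1 and Dll4 were higher.

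Hes1 was at 11.18, 11.25 and 11.72 in Sox9-GFP+ cells of p23 and at 9.65, 9.97 and 8.89 in GFP- cells. The Sox9-GFP+ arrays were all higher, by 1.88 (SE 0.23, adjusted p = 1.5e-05). Nrarp was at 8.25, 8.58 and 9.16 against 7.28, 7.53 and 6.97, with no overlap, and was higher by 1.40 (SE 0.21, adjusted p = 9.0e-05). Hey1 was at 9.16, 9.05 and 9.68 against 8.71, 8.38 and 8.28, again without overlap, and was higher by 0.84 (SE 0.21, adjusted p = 0.00659). Notch2 was at 10.33, 10.56 and 10.38 against 9.02, 9.24 and 9.58, a difference of 1.15 (SE 0.20, adjusted p = 0.000411). Jag1 was at 9.01, 9.15 and 8.999 against 8.18, 8.23 and 7.95, a difference of 0.93 (SE 0.16, adjusted p = 0.000243). Both genes' groups lay apart.

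Notch1 was at 8.52, 8.74 and 8.55 against 8.30, 8.16 and 8.002 in GFP- cells, all lower there, a difference of 0.45 (SE 0.13, adjusted p = 0.014). That call was lost in 5 of 18 alternatives, over which the adjusted p ran from 0.000238 to 0.18. Dll4 was at 7.55, 7.65 and 7.01 against 7.22, 6.94 and 6.54, and the groups overlapped. Its difference of 0.50 (SE 0.18, adjusted p = 0.0405) was lost in 7 of 18 alternatives, and was 0.32 (adjusted p = 0.188) without the third GFP- array. Jag2, Dll1 and Notch3 did not pass. Jag2 was at 7.73, 7.41 and 7.37 against 7.33, 7.02 and 7.20, a difference of 0.32 with an interval of 0.03 to 0.61 (adjusted p = 0.0834). Dll1 was at 7.31, 7.23 and 7.11 against 7.43, 6.99 and 6.71, and Notch3 was at 7.77, 7.74 and 7.52 against 7.72, 7.72 and 7.70. Their differences were 0.17 (interval −0.32 to 0.67) and −0.04 (interval −0.30 to 0.22).

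The GFP- arrays held more leukocyte and endothelial marker signal. Of 16 leukocyte genes, 14 were lower in Sox9-GFP+ cells, and of 18 endothelial genes 9 were lower. The endothelial list mean was 8.02 to 8.31 in GFP- cells and 7.26 to 7.54 in Sox9-GFP+ cells. In Sox9-GFP+ cells 7 of 10 ductal markers and 9 of 16 immediate early genes, which respond to cell dissociation, were higher and none lower. Of 16 mesenchymal and pericyte markers 3 were higher and 7 lower there. Of 10 acinar markers 4 were lower and none higher, and of 13 endocrine markers 2 were higher and 4 lower. Fewer cells of a type and less RNA per cell cannot be told apart in these bulk sorts. The part of these markers in the differences of the 10 genes was not tested. Without the 2 Sox9-GFP+ arrays of p23 with Ptprc above 9, Hes1, Nrarp, Notch2, Jag1 and Dll4 kept their calls. Hey1 (0.70) and Notch1 (0.37) lost theirs, and Jag2 (0.55) gained one. That left 1 Sox9-GFP+ array, assumed to vary like the others.

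The sort effects at the 2 ages were set against each other in the same fit. The difference tested was the e15.5 effect (Ngn3-GFP+ minus Sox9-GFP+) less the p23 effect (GFP- minus Sox9-GFP+), and 45.3% of all genes were called in it, 27.1% higher. Of the genes called, 59.7% were higher, against 45.7% with each array centred on its median. Of the 10 genes, Dll4 (0.94, SE 0.25, adjusted p = 0.00927) and Jag2 (0.68, SE 0.19, adjusted p = 0.0116) passed and 8 did not. Jag2 lost its call with quantile normalization (0.43, adjusted p = 0.0615). Against Sox9-GFP+ cells of its age, the Dll4 signal was 0.44 higher in Ngn3-GFP+ cells and 0.50 lower in GFP- cells. For Nrarp the difference was −0.50 (interval −1.13 to 0.14), but it was called with array weights (−0.69, adjusted p = 0.0197), without the third Sox9-GFP+ array of p23 (−0.75, adjusted p = 0.0264) and without the Ptprc arrays (−0.91, adjusted p = 0.0264), while for Hes1 it was 0.46 (interval −0.25 to 1.16). The 2 ages use different negative sorts, so age and cell type cannot be told apart.

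**Figure D2:**
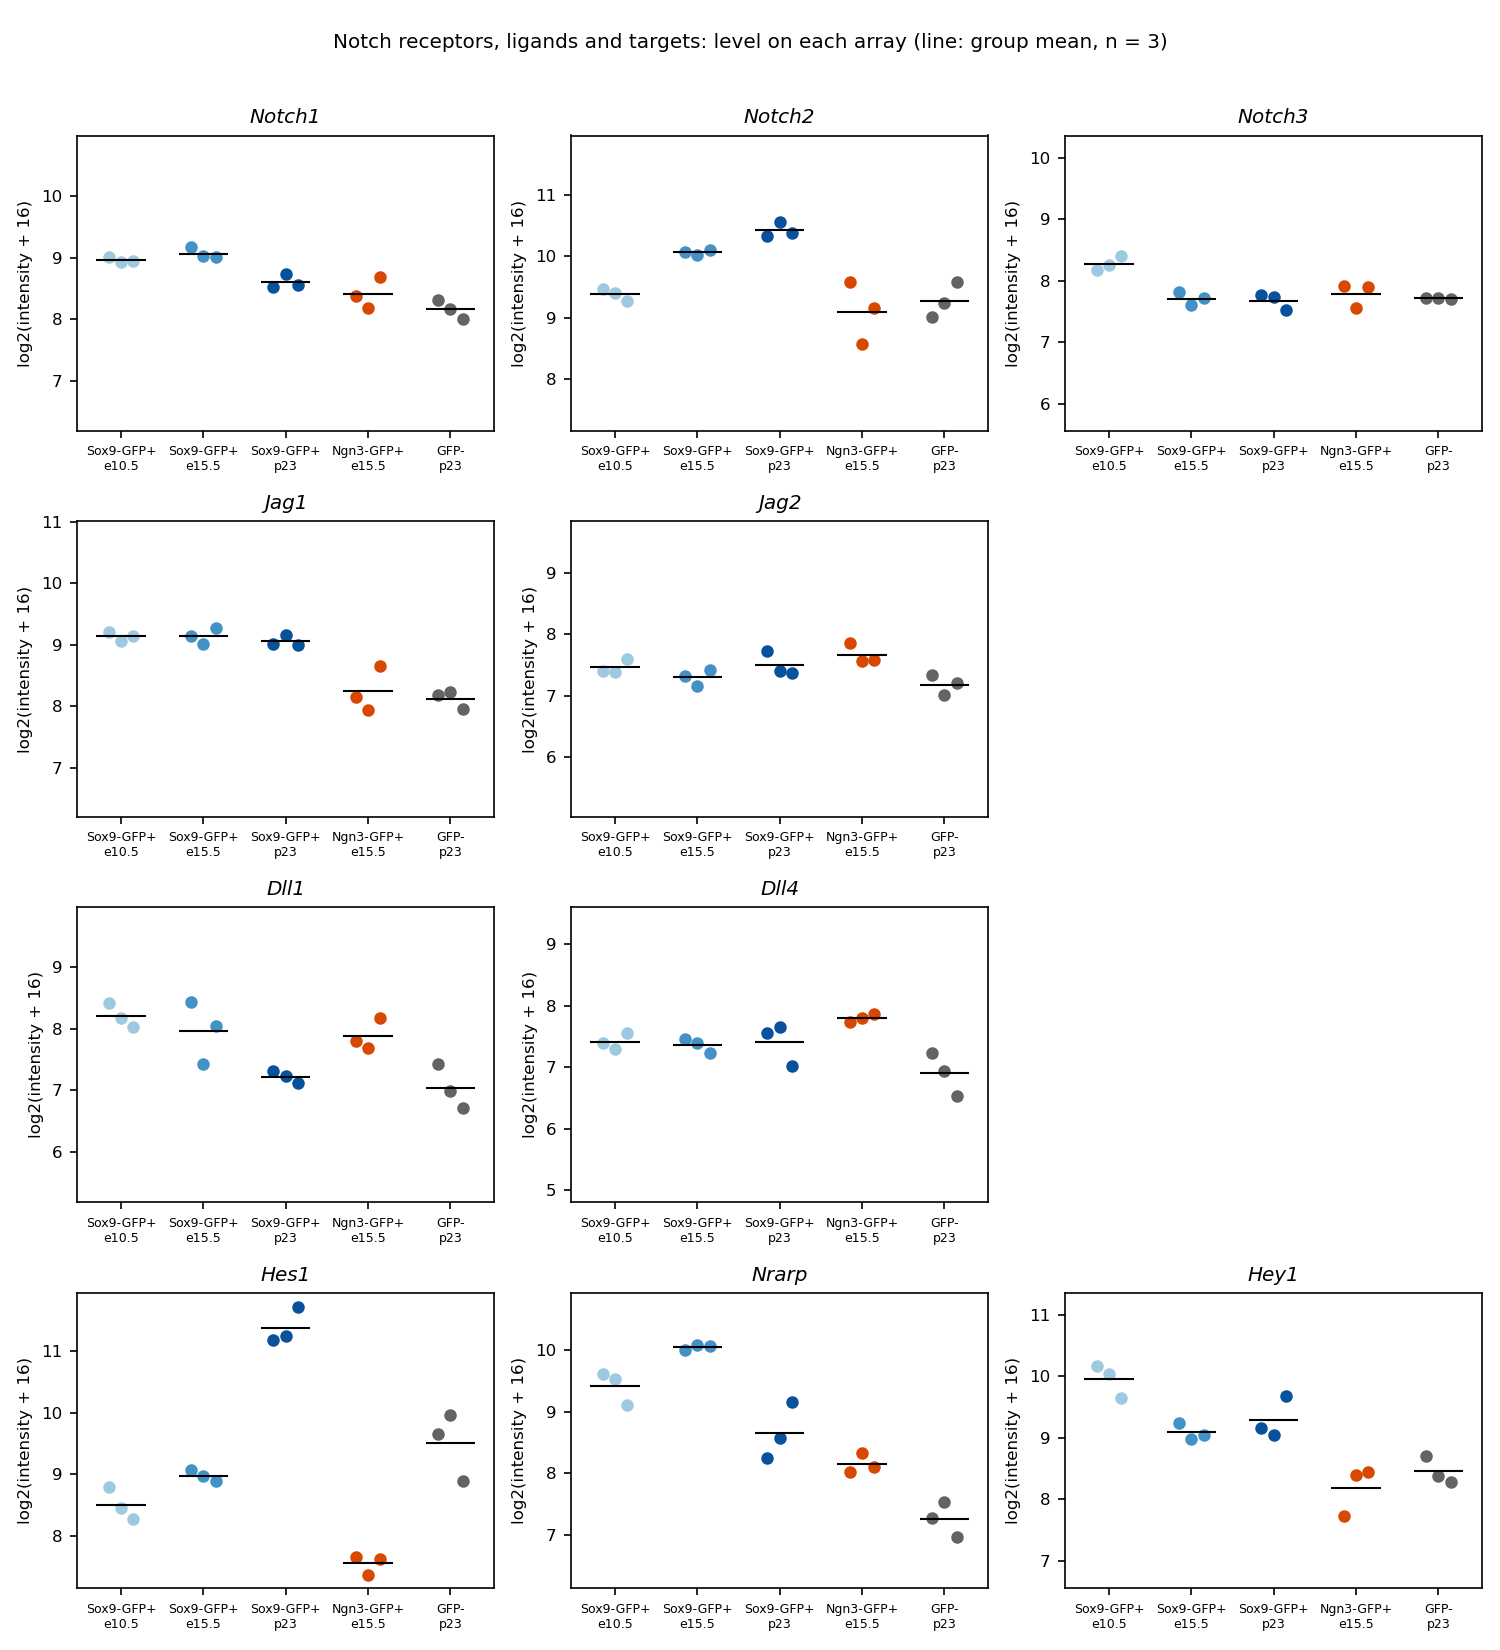
Level of each gene as log2(intensity + 16) on each of the 15 arrays, in the 5 sorted groups, with 1 panel per gene and the group mean as a line. Hes1 spans group means from 7.55 to 11.39 and Jag2 from 7.18 to 7.67. Panels share the height of the axis but not its position, since levels of different probe sets are not comparable.

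Within the Sox9-GFP+ cells the 3 targets followed different courses with age. Hes1 was at 8.79, 8.45 and 8.27 at e10.5. It did not pass from e10.5 to e15.5 (0.47, adjusted p = 0.133) but rose by 2.41 from e15.5 to p23 (SE 0.23, adjusted p = 2.2e-06), 5.31-fold on this scale. All 3 arrays of p23 were above every other array of the series. Nrarp was at 9.61, 9.53 and 9.11 at e10.5, rose by 0.64 to e15.5 (SE 0.21, adjusted p = 0.0364) and then fell by 1.39 to p23 (SE 0.21, adjusted p = 0.000125). Its e15.5 arrays were the highest of all 15. Hey1 was at 10.17, 10.03 and 9.64 at e10.5, fell by 0.86 to e15.5 (SE 0.21, adjusted p = 0.0121) and did not pass from e15.5 to p23 (0.20, adjusted p = 0.43).

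The immediate early genes rose with age over the same arrays. Their mean was 7.84 to 7.96 at e10.5, 9.65 to 10.52 at e15.5 and 12.02 to 12.24 at p23, and all 16 measured rose from e15.5 to p23. In GFP- cells of p23 it was 11.20 to 11.63, and Hes1 there was the second highest by group mean, overlapping Sox9-GFP+ cells of e15.5. Other markers moved from e15.5 to p23 too. Of 18 endothelial genes 17 rose and 1 fell, but most were dim. Per array, 1 of them at e15.5 and 1 to 6 at p23 were above the table median. Of 16 leukocyte genes 12 rose and none fell, and of 13 endocrine genes 12 fell and none rose. Of 10 acinar genes 5 rose and 3 fell (list mean 9.14 to 10.20 at e15.5, 11.58 to 11.80 at p23). Of 10 ductal genes 4 rose and 1 fell, and of 16 mesenchymal and pericyte genes 6 rose and none fell. From e10.5 to e15.5, 8 acinar, 5 ductal and 5 endocrine genes rose and none fell. In that interval 5 mesenchymal and pericyte genes rose and 1 fell, 1 endothelial gene rose and 4 fell, and no leukocyte gene was called. The part of these lists in the changes of the members with age was not tested. Trypsin was used where needed, with no age given, so age and dissociation cannot be told apart.

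**Figure D3:**
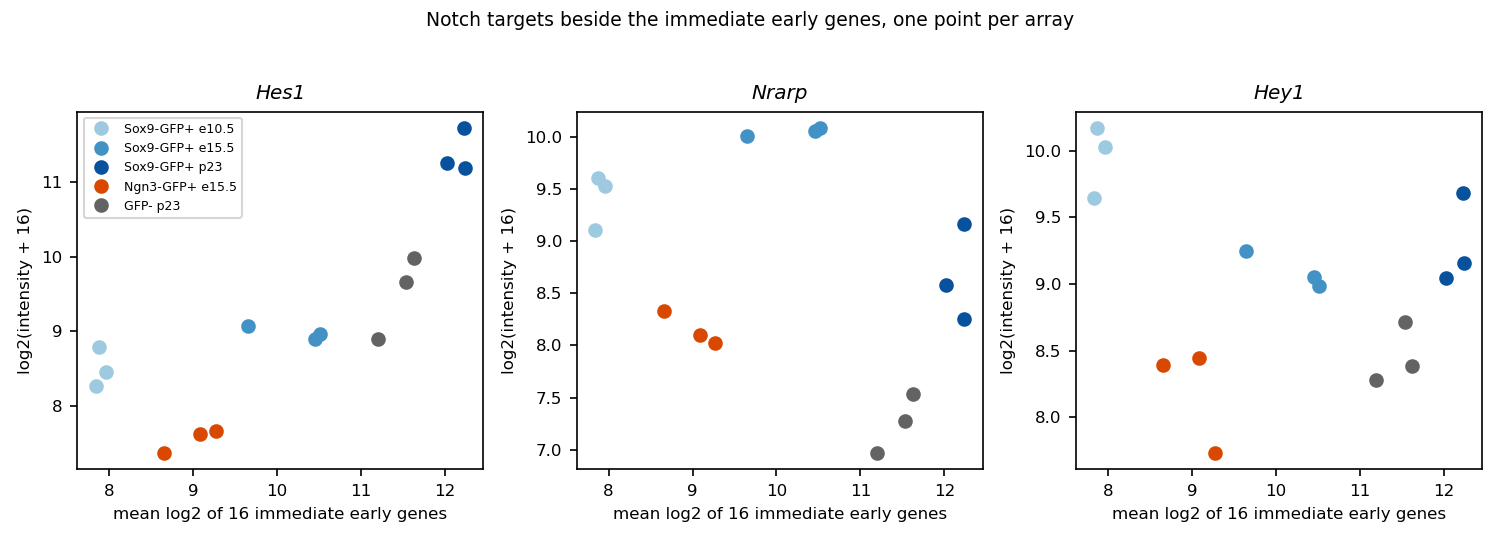
Level of Hes1, Nrarp and Hey1 against the mean level of 16 immediate early genes, 1 point per array, coloured by group. The Sox9-GFP+ arrays of p23 lie at 12.02 to 12.24 on the horizontal axis with Hes1 at 11.18 to 11.72, while Nrarp there (8.25 to 9.16) lies below its e15.5 arrays (10.01 to 10.09).

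The receptors also parted with age. Notch2 was at 9.47, 9.41 and 9.28 at e10.5 and rose by 0.69 to e15.5 (SE 0.20, adjusted p = 0.0248), with no overlap. From e15.5 to p23 it did not pass (0.35, adjusted p = 0.145), though all 3 p23 arrays lay above those of e15.5. That change was called in 3 of 19 alternatives, among them quantile normalization (0.53, adjusted p = 0.0375). Over the whole interval Notch2 rose by 1.04 (SE 0.20, adjusted p = 0.000838). Notch1 was at 9.01, 8.93 and 8.94 at e10.5 and fell by 0.46 from e15.5 to p23 (SE 0.13, adjusted p = 0.00882), or by 0.23 with quantile normalization (adjusted p = 0.14). Notch3 was at 8.18, 8.25 and 8.40 at e10.5, above every other array of the series, and fell by 0.57 to e15.5 (SE 0.12, adjusted p = 0.00512). It did not pass from e15.5 to p23 (−0.03, adjusted p = 0.82).

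Dll1 was the only ligand called between stages. It was at 8.41, 8.17 and 8.02 at e10.5, spread widely at e15.5 and fell by 0.75 from e15.5 to p23 (SE 0.23, adjusted p = 0.0137). Without the first Sox9-GFP+ array of e15.5, which also held Hbb-y, that change was −0.52 (adjusted p = 0.073). Jag1 was at 9.20, 9.06 and 9.14 at e10.5, Jag2 at 7.41, 7.38 and 7.59, and Dll4 at 7.39, 7.30 and 7.55. None of the 3 passed between any stages. From e10.5 to p23 the intervals were −0.41 to 0.25 for Jag1, −0.25 to 0.33 for Jag2 and −0.39 to 0.38 for Dll4.

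**Figure D4:**
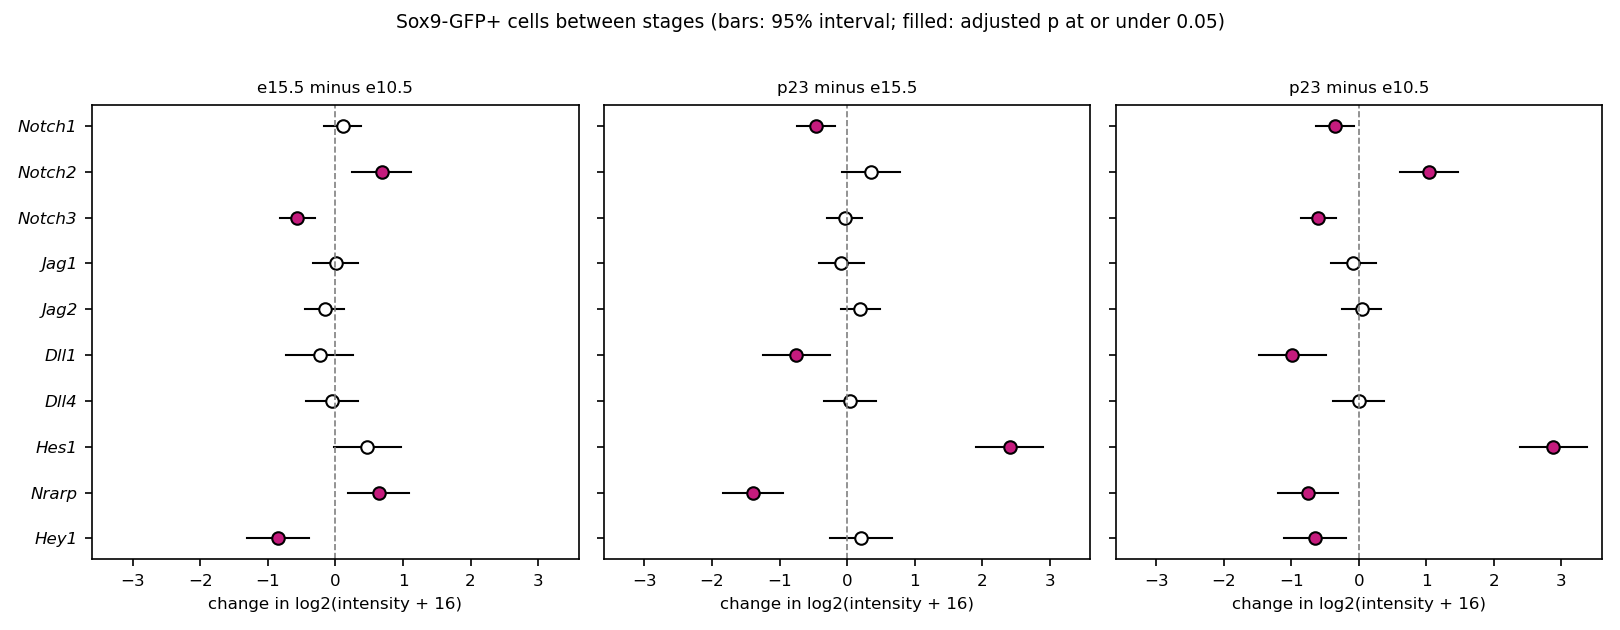
Change in log2(intensity + 16) of the 10 genes between stages in Sox9-GFP+ cells (e15.5 minus e10.5, p23 minus e15.5, p23 minus e10.5). Points are limma estimates, bars are 95% intervals and filled points have an adjusted p at or under 0.05. Hes1 lies at 2.41 and 2.88 in the changes to p23, and Nrarp at 0.64, −1.39 and −0.75.

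By count, 2 of the 10 rose and 2 fell from e10.5 to e15.5, where 12.2% of all genes rose, 16% fell and 28.2% were called. From e15.5 to p23, 1 rose and 3 fell, where 30.7% rose, 26.8% fell and 57.5% were called. From e10.5 to p23, 2 rose (Hes1 and Notch2) and 5 fell (Dll1, Nrarp, Hey1, Notch3 and Notch1), where 17.7% rose, 23.3% fell and 41% were called. In that interval Notch1 lost its call in 11 and Hey1 in 6 of 19 alternatives. Groups did not overlap for 5 of the 10 in each of the 3 intervals, against 57.3%, 72.7% and 50.9% of all genes in the same order. The members' median changes were −0.02, 0.01 and −0.22, against −0.05, 0.05 and −0.01 over all genes. The 2 rises and 2 falls of the first interval came to 2 calls under quantile normalization, and to between 1 and 4 when each array was left out in turn (1 without the second Sox9-GFP+ array of e15.5). Notch2 and Nrarp lost their calls under quantile normalization and when any array but the first of e10.5 was left out. From e10.5 to p23, 4 members were called without the first Sox9-GFP+ array of p23. The 3 arrays with Hbb-y above 9 touch both embryonic groups. Without them 1 member was called from e10.5 to e15.5, 2 from e15.5 to p23 and 3 from e10.5 to p23, with 1 array left at e10.5. From e10.5 to p23 Nrarp then stood at −0.44 (adjusted p = 0.368) and Hey1 at −0.35 (adjusted p = 0.498).

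Neighbouring groups were often inseparable when ordered by mean. Jag1 had 3 groups that overlapped at the top, all Sox9-GFP+, and a gap of 0.81 below them to Ngn3-GFP+ cells. Notch3 had 1 group apart, e10.5, and 4 that overlapped. Jag2 had no neighbours whose ranges were apart.

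Other genes of the pathway were taken from lists by role, and 48 of them were tested. Hey2 was below the filter. Between the e15.5 sorts, 10 of the 48 rose and 7 fell in Ngn3-GFP+ cells, with a median change of 0.04, where 23.3% of all genes rose, 18.4% fell and 41.7% were called. The 17 calls became 9 without the third Sox9-GFP+ array, 3 higher and 6 lower, and the split also turned without the first Ngn3-GFP+ array (8 and 9) or the third (6 and 9). Rbpj, the DNA-binding partner of Notch, was at 10.60, 10.47 and 10.501 in Sox9-GFP+ and at 10.28, 9.99 and 9.96 in Ngn3-GFP+ cells, and fell by 0.45 (adjusted p = 0.00974). Adam10, the protease that cuts the bound receptor, fell by 0.63 (adjusted p = 0.000471). Poglut1, which adds glucose to the receptor, was at 9.82, 9.86 and 9.85 against 9.43, 7.40 and 9.19. Its change of −1.17 (adjusted p = 0.0229) was −0.53 (adjusted p = 0.0264) without the second Ngn3-GFP+ array, and the call was not kept under other scalings. Hes5, another Notch target, was at 8.16, 8.09 and 8.05 against 8.80, 8.86 and 8.86, and rose by 0.74 (adjusted p = 0.00134), the opposite direction to Hes1. Notch4 rose by 0.38 (adjusted p = 0.032), a call not kept under other scalings. Hes6, Heyl and Lfng did not pass.

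At p23, 14 of the 48 pathway genes were higher in Sox9-GFP+ cells and 7 were lower, where 21.5% of all genes were higher, 14.5% lower and 36% called. The split was 13 to 11 with quantile normalization and turned to 9 higher and 11 lower with median centring. Of the 13 nuclear complex and co-factor genes, 7 were higher and none was lower, and 2 of the 7, Maml1 and Snw1, were not called under every scaling. Among the other lists, receptor processing had 2 higher and 3 lower of 8, and glycosylation had 2 lower of 5. Inhibitors and turnover had 3 higher and 1 lower of 8, and ligand endocytosis had 2 higher of 4. The other Hes and Hey genes had 1 lower of 6, and none of the 4 other receptors and ligands was called. Rbpj was at 10.32, 10.38 and 10.56 against 9.83, 9.74 and 9.97, higher by 0.58 (adjusted p = 0.00112). Tle2, a Groucho-type co-repressor, was higher by 1.24 (adjusted p = 2.7e-06) and Kat2b, a histone acetyltransferase, by 0.97 (adjusted p = 0.00157). Lfng, the fringe enzyme that modifies Notch, was at 6.85, 7.48 and 7.54 against 8.38, 8.41 and 8.40, all lower (−1.11, adjusted p = 4.1e-05). Hes5 was not called (−0.03), and neither were Hes6 (0.41), Heyl (−0.24) or Notch4 (−0.17).

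**Figure D5:**
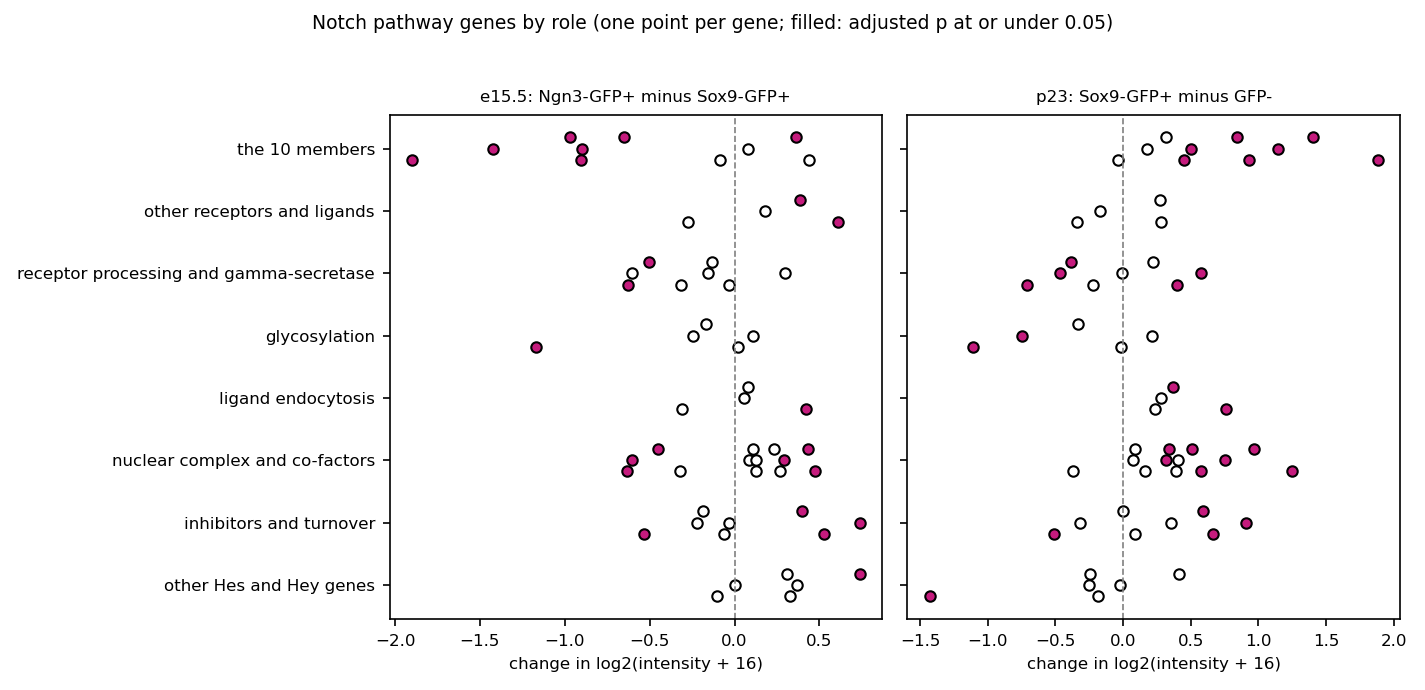
Change in log2(intensity + 16) of the Notch pathway genes between sorts, grouped by role, 1 point per gene, filled where the adjusted p is at or under 0.05. Hes5 lies at 0.74 at e15.5, and Rbpj lies at −0.45 at e15.5 and 0.58 at p23.

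Between stages in Sox9-GFP+ cells, 7 of the 48 pathway genes were higher and 8 lower at e15.5 than at e10.5, where 12.2% of all genes rose and 16% fell. From e15.5 to p23, 8 were higher and 15 lower, where 30.7% rose and 26.8% fell, and this split turned to 12 and 10 with quantile normalization and was 10 and 14 with median centring. Over the whole interval 9 were higher and 11 lower, where 17.7% rose and 23.3% fell. The 15 calls of the first interval became 6 without the third array of either group. Dlk1, a Delta-like protein that does not activate Notch in the usual way, had levels of 10.64, 10.05 and 10.27 at e15.5, and the p23 arrays lay far below them (4.995, 5.32 and 5.26, adjusted p = 8.7e-10). All 3 p23 arrays were below the filter intensity of 97.8, where the size of a fall depends on the offset, so none is given. Hes6 fell by 1.18 in the same interval (adjusted p = 6.6e-05), while Kat2b rose by 1.36 (adjusted p = 0.000109) and Tle4, another Groucho-type co-repressor, also rose (adjusted p = 6.0e-07), from 3 arrays of e15.5 that were all below the filter intensity. Rbpj did not pass between any of the stages.

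The genes whose levels followed each member most closely over the 15 arrays were ranked by Pearson r among 15741 genes, as a description that includes the group differences. The closest to Nrarp were Prc1 (r = 0.97), Gins2 (r = 0.97) and Ska2 (r = 0.96). The closest to Hes1 were Trib1, Klf3 and Rhou (r = 0.96 each). Ctbp2 was first for both Notch1 (r = 0.95) and Jag1 (r = 0.97). For Notch2 it was Cers2 (r = 0.94), for Notch3 Angpt2 (r = 0.96), for Dll1 Ckap4 (r = 0.94), for Dll4 Dvl1 (r = 0.92), for Jag2 Asic1 (r = 0.91) and for Hey1 Zfp454 (r = 0.91). All arrays share the same processing, and array medians lay between 7.76 and 8.02, lowest in GFP- cells.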

How the data were processed

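Sorted cells were profiled on Affymetrix mouse gene arrays after amplification of 20 ng of RNA, per the labels' protocols. The authors deposited linear intensity values per probe set, and the submitters' processing notes name Affymetrix Expression Console 1.1 and PLIER. Whether arrays were normalized to each other is not stated in any source used here. No counts exist for arrays, so the number of arrays, 3 per group, limits the precision. An exact test of 3 against 3 cannot go below p = 0.1.

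Of 35557 probe sets, 21789 named a single gene. Genes above intensity 97.8 (the 30th percentile) in at least 3 arrays were tested on log2(intensity + 16) in one limma 3.58.1 fit (R 4.3.3) with 5 group means and no covariate. P-values were adjusted by Benjamini-Hochberg over the 16883 genes of each contrast and called at 0.05. Folds are on the log2(intensity + 16) scale and understate dim genes. The fit was tested on simulated data. Alternatives varied offset, scaling, filter, probe sets, variance, array weights, samples and the replicate block. Whether replicate numbers pair the arrays is not stated, and the main fit did not pair them. The members, the pathway and marker lists were chosen with earlier results of these data known. The genes named are the members, up to 5 called pathway genes per direction and contrast whose groups do not overlap, 6 fixed pathway genes, the 3 genes most like each member, Sox9 and Neurog3.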

Additional observations from a re-analysis of the deposited data

Results flagged for a closer look

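The sort effect of Dll4 and of Jag2 differed between the 2 pairs of sorts by limma. The difference tested was the e15.5 effect (Ngn3-GFP+ minus Sox9-GFP+) less the p23 effect (GFP- minus Sox9-GFP+). For Dll4 the difference was 0.94 (adjusted p = 0.00927), and for Jag2 it was 0.68 (adjusted p = 0.0116). These are 2 of the 10 members, where 45.3% of all genes were called. Jag2 lost its call with quantile normalization (0.43, adjusted p = 0.0615). The negative sorts differ, so age and cell type cannot be told apart. Both genes were higher in all 3 Ngn3-GFP+ arrays than in any Sox9-GFP+ array of e15.5, while Jag2 was lower in all 3 GFP- arrays than in any Sox9-GFP+ array of p23 and Dll4 overlapped there. Both are dim, above the table median in 3 and 2 of the 15 arrays.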

How the results depend on the processing

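Over the members, 1164 values were recomputed under alternatives: 1088 kept direction and side of the threshold or were uncalled in both, 66 lost the call, 10 gained one, and no called member changed sign. Hes1 and Nrarp kept their calls under every alternative run in the change from e15.5 to p23 and in both comparisons of sorts. From e10.5 to e15.5 the 4 members called became 2 with quantile normalization, 1 without the 3 arrays with Hbb-y above 9, and 1 to 4 leaving out each array. From e15.5 to p23 the 4 became 2 without the Hbb-y arrays. From e10.5 to p23 the 7 became 3 without the Hbb-y arrays, 4 without the 2 p23 arrays with Ptprc above 9, and 4 to 6 leaving out each array. The 2 members whose sort effect differed became 1 with quantile normalization and 1 with the filter at the median, which removed Jag2, and 3, with Nrarp, with array weights, without the third Sox9-GFP+ array of p23 and without the Ptprc arrays. The Hbb-y and Ptprc alternatives, and all recounts of pathway genes and of all genes, were chosen after seeing the data. Both marker alternatives leave 1 array in a group.

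With the replicate number as a block, Nrarp lost its call from e10.5 to e15.5 (adjusted p = 0.0513) and Notch1 from e10.5 to p23 (adjusted p = 0.0656), and no other member's call changed. In no comparison did all 3 same-numbered pairs correlate above 0.1, but with 3 arrays per group this cannot exclude pairing. Over all genes, 4754 calls from e10.5 to e15.5 became 2835 with quantile normalization, 7149 with only the groups compared, 2673 without the Hbb-y arrays and 1840 to 5952 leaving out each array. The 7034 calls between the e15.5 sorts became 4127 with quantile normalization and 3757 to 6839 leaving out each array, and 6916 from e10.5 to p23 became 3559 without the Hbb-y arrays. With array weights, whose iteration stopped before converging, pathway calls went from 23 to 35 from e15.5 to p23 and from 21 to 32 between the p23 sorts. Without the Hbb-y arrays they went from 15 to 8, from 20 to 8 and from 17 to 9, from e10.5 to e15.5, from e10.5 to p23 and between the e15.5 sorts. Without the Ptprc arrays they went from 20 to 13 from e10.5 to p23 and from 21 to 12 between the p23 sorts. The cause was not tested. Dim signal limits Jag2 and Dll4, and also Dll1, which was above the table median in 8 of the 15 arrays. Notch3, Hes1 and Nrarp were above it in 12 each. Hes1 was below it in every Ngn3-GFP+ array and Nrarp in every GFP- array.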
